A study of Mus musculus with 12 samples.

Results

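Rassf6 and 9 genes of the Hippo pathway were followed in primary colonic myofibroblasts, the mesenchymal cells that lie under the gut epithelium. The 10 genes are the adaptor Rassf6, the kinases Stk3, Lats1 and Lats2, the co-activators Yap1 and Wwtr1, the DNA-binding factors Tead1 and Tead3, and the target genes Ankrd1 and Amotl2. They were taken by gene symbol from a table of 24411 symbols, and all 10 were found. The set was chosen by the knockout against control values of these same libraries, with earlier results known. Those values are therefore given for the 10 genes as a description, with no p-value for any of them. The number of the 10 that passed the test over all genes is given below, and nothing is read from it. Cells came from the distal colon of 16-week-old mice on a C57BL/6 background, either TNFR1-/- (knockout, 6 libraries) or heterozygous for TNFR1 (control, 6 libraries), so the controls also carry 1 disrupted allele. They were grown to passage 6 to 8, left untreated, and taken from Matrigel on day 5. TNFR1, encoded by Tnfrsf1a, is a receptor for tumor necrosis factor.

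The Hippo pathway is a kinase relay that restrains growth. The MST kinases, of which MST2 is the product of Stk3, activate LATS1 and LATS2, and these phosphorylate YAP (from Yap1) and TAZ (from Wwtr1), which then stay in the cytoplasm. When the relay is off, YAP and TAZ enter the nucleus and bind TEAD factors on genes such as Ankrd1, Ctgf and Cyr61. In fibroblasts this output is known to respond to stiffness and to cytoskeletal tension. Phosphorylation and location of YAP and TAZ decide much of their activity, and transcript counts do not show either.

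The 12 libraries held 6543013 to 9937008 counts in the knockout group and 11890729 to 16458689 in the control group. By similarity of profile there were 4 sets, which were knockout 1 to 4, knockout 5 with 6, control 1 to 5, and control 6 by itself. Spearman correlations over tested genes reached 0.989 to 0.998 inside a set, against 0.926 to 0.954 where sets of the same genotype were crossed. Pairs of different genotype had a wider range that took this in, 0.882 to 0.976. Control 6 correlated at 0.968 to 0.976 with knockout 1 to 4, above its 0.952 to 0.954 with control 1 to 5. Nothing in the sources used here ties libraries to separate mice or cultures, so the spread behind each p-value is that of these samples alone and may be technical. Rn45s, a ribosomal RNA gene, took 1.63% to 8.25% of counts in knockout and 0.351% to 1.19% in control libraries, with the highest shares in knockout 5 and 6. Tnfrsf1a had a median of 45.0 CPM in the knockout libraries (lowest 40.6, highest 46.1) and 79.0 CPM in the control libraries (lowest 54.9, highest 81.3) (CPM, counts scaled to a common library size). Its transcript was thus lower but still counted in the knockout libraries, and counts per gene do not show whether the reads lie in the disrupted part (log2 difference -0.76, SE 0.10; edgeR adjusted p = 9.24e-05). The 9 fibroblast and myofibroblast markers summed to 13503 to 33444 CPM in knockout and 24897 to 35306 CPM in control libraries. Of these markers 3 were higher and 2 lower, against 21.4% and 21.6% of all tested genes. All but Vim averaged lower in knockout 5 and 6 than in knockout 1 to 4, for instance Col1a1 at 2048 against 11075 CPM. Of 10 epithelial markers 2 could be tested and 0 were called, and for Epcam, Cdh1 and Vil1 no library had more than 1 count. Of 9 macrophage and leukocyte markers 6 were lower and 0 higher in the knockout, against 21.6% and 21.4% of all tested genes. Their summed level was 37.9 to 56.8 CPM in knockout and 78.3 to 126.6 CPM in control libraries. Most of that sum was Lyz2, with means of 29.7 CPM in knockout and 60.9 CPM in control libraries. No marker on these lists was at 0 in every library, and the part of such cells in the results below was not tested.

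The start-site regions of the members are shown first, because YAP and TAZ reach DNA through TEAD factors, which recognise the letters CATTCC. RefSeq promoter windows of build GRCm38.p6 run from 250 bases before a gene's start to 50 after it, and 8 of the 10 members matched one or more of them by symbol, Stk3 and Tead1 not being among them. CATTCC was present on either strand in the windows of 6 of these 8 members, which were Ankrd1, Amotl2, Yap1, Wwtr1, Tead3 and Lats2. By window it was in 8 of their 12, and the Lats2 match lay after the start. Of all 27025 genes with such windows, 16.6% had CATTCC in at least 1 (14.7% of 32851 windows). Since Ankrd1, Amotl2 and Lats2 are themselves target genes of YAP and TAZ, nothing is read from this contrast. Among the 19 other genes of the YAP and TAZ target signature described below, 12 were matched and 4 of those had the letters. The AP-1 motif TGANTCA, searched in the same way, was in the windows of 0 of the 8 members and in those of 8.97% of all genes. With no AP-1 match there, no match of the pair overlaps. A match is only a description of the letters and does not show that a factor binds there. The 250 bases before the start are printed below for 5 members, each 5′ to 3′ on the gene's own strand, with the TEAD motif in capitals (CATTCC, or GGAATG where it lies on the other strand). Ankrd1 (chr19:36119845-36120094, minus strand) is shown because it has 2 matches, 210 and 123 bases before the start. Amotl2 (chr9:102717554-102717803, plus strand) has its match 65 bases before the start, nearest to it among these 5. Yap1 (chr9:8004597-8004846, minus strand) and Wwtr1 (chr3:57575911-57576160, minus strand) show that the co-activator genes hold the letters as well, 141 and 136 bases before their starts. Rassf6 (chr5:90640528-90640777, minus strand) is shown for contrast, since it has none.
Ankrd1: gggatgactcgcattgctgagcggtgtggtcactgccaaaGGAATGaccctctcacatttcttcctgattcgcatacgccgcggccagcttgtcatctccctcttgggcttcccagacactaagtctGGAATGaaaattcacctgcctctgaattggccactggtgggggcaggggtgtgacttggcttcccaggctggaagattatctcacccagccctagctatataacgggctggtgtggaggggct
Amotl2: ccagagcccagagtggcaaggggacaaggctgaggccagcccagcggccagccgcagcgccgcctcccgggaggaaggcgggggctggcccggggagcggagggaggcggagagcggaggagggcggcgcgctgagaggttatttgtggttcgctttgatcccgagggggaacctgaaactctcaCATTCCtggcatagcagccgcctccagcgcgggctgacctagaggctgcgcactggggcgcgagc
Yap1: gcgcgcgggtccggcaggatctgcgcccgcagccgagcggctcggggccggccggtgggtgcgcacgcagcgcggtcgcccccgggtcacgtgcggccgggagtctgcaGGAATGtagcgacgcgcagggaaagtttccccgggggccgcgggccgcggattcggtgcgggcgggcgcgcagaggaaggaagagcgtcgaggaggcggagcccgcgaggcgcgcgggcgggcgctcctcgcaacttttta
Wwtr1: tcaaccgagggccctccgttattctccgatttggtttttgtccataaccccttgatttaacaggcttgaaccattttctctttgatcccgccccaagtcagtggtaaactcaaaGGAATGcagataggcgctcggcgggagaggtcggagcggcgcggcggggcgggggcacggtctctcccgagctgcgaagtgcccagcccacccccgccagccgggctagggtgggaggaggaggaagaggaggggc
Rassf6: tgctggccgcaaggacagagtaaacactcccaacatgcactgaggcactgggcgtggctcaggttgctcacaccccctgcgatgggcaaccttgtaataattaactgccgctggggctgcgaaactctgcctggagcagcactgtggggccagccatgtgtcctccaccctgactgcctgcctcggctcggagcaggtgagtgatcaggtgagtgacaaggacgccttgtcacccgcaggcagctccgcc

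**Figure D1:**
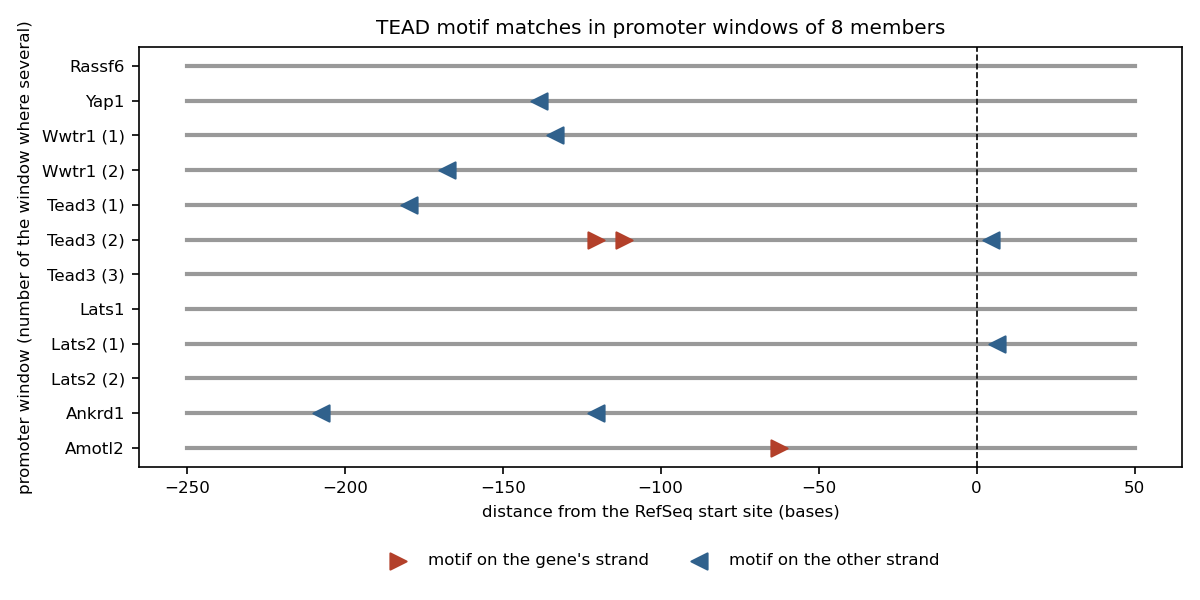
Positions of CATTCC matches in the 12 RefSeq promoter windows of 8 members, as distance in bases from the start site (dashed line); grey lines are the windows, and arrows give the strand of the motif. Ankrd1 has 2 matches before its start, Amotl2, Yap1 and each Wwtr1 window have 1, and Rassf6 and Lats1 have 0; both Wwtr1 windows hold the same site.

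Rassf6 had the widest relative difference of the 10 genes. It encodes an adaptor of the RASSF family, whose C-terminal SARAH domain binds the MST kinases. Knockout 1 to 6 held 13.1, 11.3, 11.9, 7.66, 16.0 and 13.8 CPM of it, against 0.292, 0.678, 1.16, 0.490, 1.06 and 2.16 CPM in control 1 to 6. All 6 knockout libraries lay above all 6 control libraries, and control 6 was the highest control. The counts behind these levels were small, 72 to 154 in knockout libraries and 4 to 34 in control libraries. The mean was 12.3 ± 2.79 CPM in knockout and 0.974 ± 0.669 CPM in control libraries (SD, n = 6 each), a log2 difference of 3.63 (SE 0.36) or 12.3-fold. The ratio of set means was lowest for knockout 1 to 4 against control 6, at 5.08, and highest for knockout 5 and 6 against control 1 to 5, at 20.2. In bulk RNA a change in the share of cells that express the gene and a change in RNA per cell cannot be told apart.

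**Figure D2:**
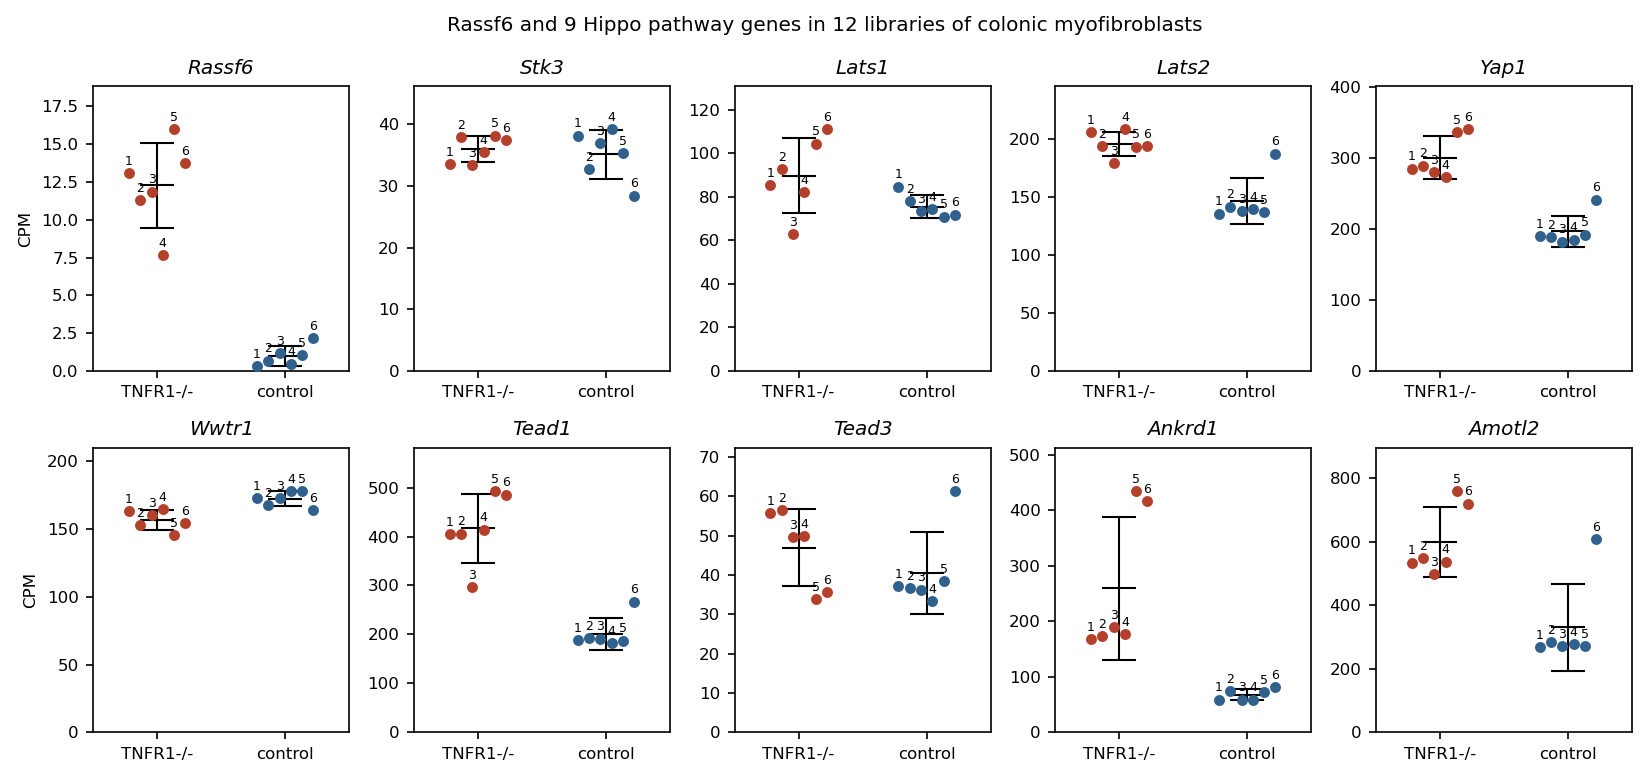
Level of each of the 10 members in CPM (y axis, from 0) in TNFR1-/- (red) and control (blue) libraries; points are libraries with their replicate number, and black bars show the mean ± SD of 6. Rassf6, Yap1, Tead1 and Ankrd1 have no overlap between the groups, while control 6 lies apart from control 1 to 5 for Amotl2, Lats2, Tead1, Tead3 and Yap1.

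The core kinases showed small differences. Stk3, the gene of MST2, was at a median of 36.5 CPM in knockout libraries (33.4 to 38.2) and 36.2 CPM in control libraries (28.4 to 39.2), and the groups overlapped (log2 difference 0.04, SE 0.09). Lats1 was at a median of 89.1 CPM in knockout (62.8 to 111.0) and 74.0 CPM in control libraries (70.9 to 84.7), with a log2 difference of 0.25 (SE 0.12). The knockout spread of Lats1 took in the control range, because knockout 3 was the lowest of all 12 libraries and knockout 5 and 6 were the highest. Lats2, a kinase gene that is itself a YAP and TAZ target, was at a median of 193.9 CPM in knockout (179.4 to 208.4) and 138.8 CPM in control libraries (135.7 to 187.4). Its log2 difference was 0.42 (SE 0.09). Knockout 1 to 6 all stood above control 1 to 5 for Lats2, while control 6, at 187.4 CPM, lay inside the knockout range.

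The 2 co-activator genes differed in opposite directions. Yap1 was at 284.8, 288.8, 280.0, 272.4, 336.3 and 339.8 CPM in knockout 1 to 6, against 189.5, 188.4, 181.9, 184.9, 191.7 and 241.2 CPM in control 1 to 6. All knockout libraries were above all control libraries, with the narrowest gap at control 6 (log2 difference 0.61, SE 0.10). Wwtr1, the gene of TAZ, was at a median of 157.2 CPM in knockout (145.6 to 164.9) and 172.8 CPM in control libraries (164.1 to 178.1). Its log2 difference of -0.14 (SE 0.06) was the only negative one among the 10, and control 6 at 164.1 CPM lay just under knockout 4 at 164.9 CPM. The number of Yap1 counts per Wwtr1 count in the same library, which does not depend on scaling between libraries, was 1.65 to 2.31 in knockout and 1.04 to 1.47 in control libraries. The ranges of this ratio did not overlap. Its mean was 1.92 ± 0.270 in knockout and 1.14 ± 0.163 in control libraries (SD, n = 6 each).

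The TEAD genes encode the factors that carry YAP and TAZ to DNA. Tead1 was at 404.1, 406.1, 296.5, 413.9, 493.0 and 485.3 CPM in knockout 1 to 6, against 188.2, 192.7, 191.5, 181.6, 187.0 and 266.8 CPM in control 1 to 6. The groups did not overlap, and the nearest values were knockout 3 and control 6 (log2 difference 1.05, SE 0.14). Tead3 was at a median of 49.8 CPM in knockout (33.9 to 56.5) and 36.9 CPM in control libraries (33.3 to 61.4). It differed between sets of the same genotype, since knockout 1 to 4 averaged 53.0 CPM and knockout 5 and 6 averaged 34.8 CPM, while control 1 to 5 averaged 36.4 CPM and control 6 had 61.4 CPM. Its log2 difference was 0.21 (SE 0.17). The number of Tead1 counts per Tead3 count was 5.97 to 14.5 in knockout and 4.35 to 5.45 in control libraries, again without overlap.

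The target genes Ankrd1 and Amotl2 were both higher on average in the knockout. Ankrd1 encodes a nuclear ankyrin-repeat protein of muscle and stretched cells and is widely used as a readout of YAP and TAZ. It was at 167.4, 173.9, 189.8, 177.1, 434.9 and 416.2 CPM in knockout 1 to 6, against 59.3, 74.6, 59.1, 58.8, 72.9 and 81.7 CPM in control 1 to 6. Every knockout library was above every control library, and knockout 5 and 6 were well above knockout 1 to 4 (log2 difference 1.94, SE 0.27). Without knockout 5 and 6 the log2 difference was 1.39 (SE 0.10). Amotl2, which encodes an angiomotin that binds YAP and holds it back, was at a median of 542.3 CPM in knockout (497.1 to 759.3) and 274.4 CPM in control libraries (268.2 to 608.6). Its log2 difference was 0.86 (SE 0.22). Control 6, at 608.6 CPM, stood above knockout 1 to 4 and below knockout 5 and 6, so the groups overlapped through this library.

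All 10 members passed the filter on low counts, Rassf6 with 72 to 154 counts in knockout but only 4 to 34 in control libraries. In the fit over all 12146 tested genes 6 of the 10 were higher and 0 lower at an adjusted p under 0.05, where 43.0% of all tested genes passed in either direction and 21.4% passed as higher. For 4 of the 10 the knockout libraries all lay above the control libraries, against 10.6% of tested genes in that direction and 23.0% in either. The median log2 difference was 0.52 over the 10 members and 0.02 over all tested genes. Since the members were picked with these values known, nothing is read from either count or from the medians. In the 4 set contrasts, which pair each knockout set with each control set, the ratio of means was above 1 throughout for Rassf6, Yap1 (1.17 to 1.81), Tead1 (1.42 to 2.60), Ankrd1 (2.17 to 6.56), Lats2 (1.03 to 1.42) and Lats1 (1.06 to 1.5). It was below 1 throughout for Wwtr1 (0.862 to 0.977). It lay on both sides of 1 for Amotl2 (0.869 to 2.69), Tead3 (0.567 to 1.46) and Stk3 (0.962 to 1.33).

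Levels were compared between genes per kilobase of exon, with exon lengths from GENCODE M21, which may not be the annotation behind the counts. In knockout libraries Amotl2 (95.2 CPM per kb) and Ankrd1 (90.1 CPM per kb) were highest and did not differ beyond their spread (difference 5.19 against a larger SD of 44.6, n = 6). Wwtr1, Yap1, Tead1 and Lats2 followed at 32.8, 32.4, 30.7 and 28.1 CPM per kb, each within the spread of its neighbour. Lats1 stood at 12.3, Tead3 at 6.99, Stk3 at 5.89 and Rassf6 at 2.88 CPM per kb, and of these only Tead3 and Stk3 were within their spread. In control libraries the order was Amotl2 (52.5), Wwtr1 (36.0), Ankrd1 (23.5), Yap1 (21.2), Lats2 (21.0), Tead1 (14.8), Lats1 (10.4), Tead3 (6.04), Stk3 (5.75) and Rassf6 (0.229 CPM per kb). There Amotl2 and Wwtr1, Ankrd1 and Yap1, Yap1 and Lats2, and Tead3 and Stk3 were not apart beyond their spread. Rassf6 was the lowest member in both groups.

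**Figure D3:**
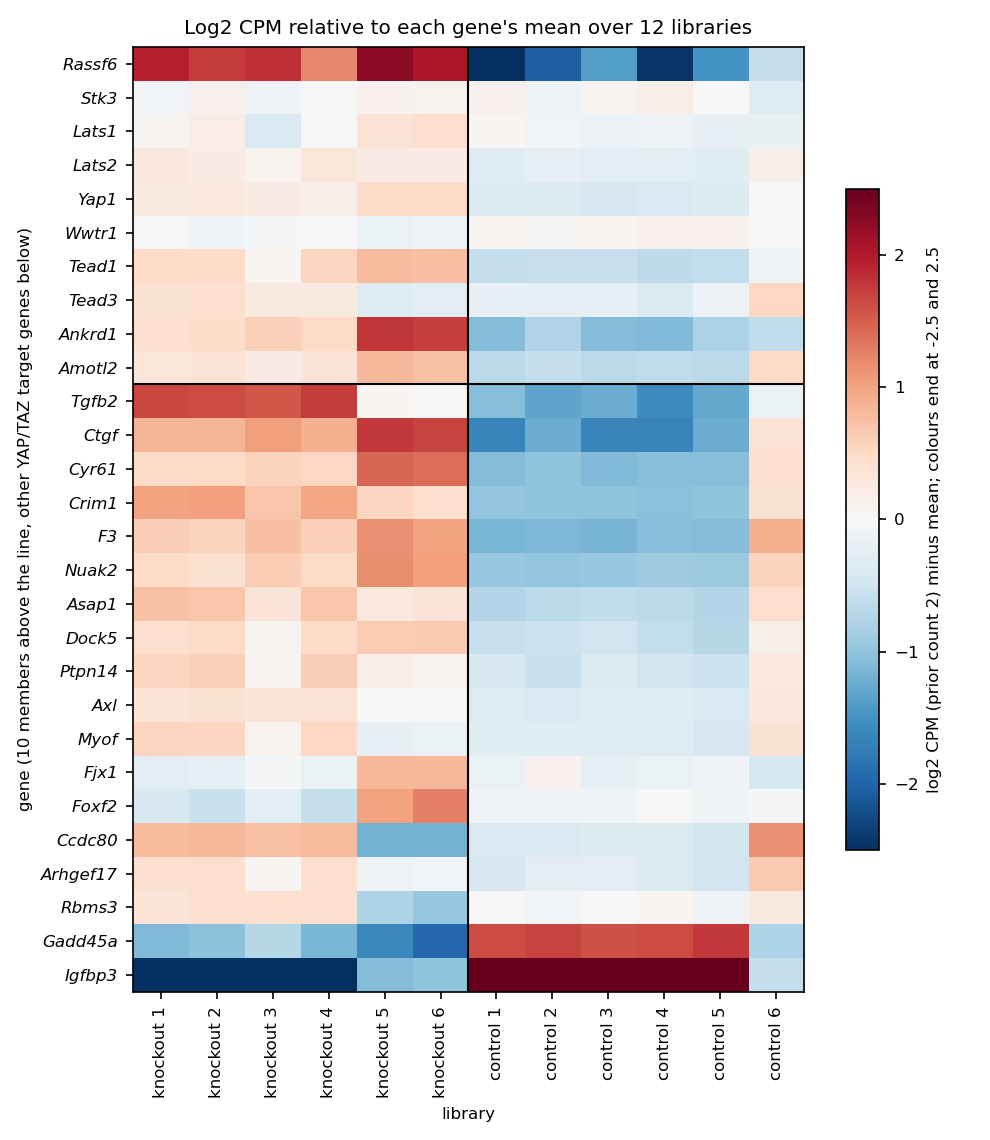
Log2 CPM (prior count 2) of the 10 members (above the line) and 18 other tested YAP and TAZ target genes (below) relative to each gene's mean over 12 libraries, with knockout libraries left and control libraries right. Control 6 is paler than control 1 to 5 or red for many rows, and knockout 5 and 6 are darker than knockout 1 to 4 for Ankrd1, Ctgf and Cyr61.

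The rest of the pathway was read from 6 lists by role, which hold 64 genes beyond the 10 members. Of these, 58 passed the filter, 27 were higher and 6 lower in the knockout at an adjusted p of 0.05, and 25 did not pass the test (edgeR quasi-likelihood test, Benjamini-Hochberg adjustment over all 12146 genes). That is 46.6% higher and 10.3% lower, against 21.4% and 21.6% of all tested genes, with a median log2 difference of 0.37 against 0.02. Like the members, these lists were chosen with earlier results of these data known, so the shares are a description and not independent support. Leaving out knockout 5 and 6 gave 28 higher and 10 lower, in a fit that called 24.5% of all tested genes higher and 27.5% lower. Leaving out control 6 as well gave 38 and 12, where 34.9% of all tested genes were called higher and 36.4% lower. With the libraries summed into their 4 sets, 0 of the listed genes tested there passed in edgeR (7 at an unadjusted p under 0.05). Likewise 0 passed in limma-voom, while DESeq2 called only Igfbp3. The calls below therefore rest on treating the 12 libraries as separate samples.

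Among the other core components 2 of 4 rose, 0 fell and 2 did not pass the test. For all tested genes the shares were 21.4% higher and 21.6% lower. Mob1b, an adaptor that activates LATS kinases, rose to a mean of 28.5 ± 4.21 CPM in knockout libraries, against 18.6 ± 1.59 CPM in control libraries (SD, n = 6 in both groups; log2 difference 0.62, SE 0.11; edgeR adjusted p = 0.000725). Stk4, the gene of the kinase MST1, rose to 48.0 ± 7.54 CPM in knockout libraries, against 33.1 ± 2.36 CPM in control libraries (log2 difference 0.54, SE 0.10; edgeR adjusted p = 0.00144). Both genes were above the control range in all 6 knockout libraries, as were 10.6% of all tested genes. The gap was narrow for Mob1b, with knockout 3 at 21.5 CPM and control 6 at 21.05 CPM. For Stk4 the nearest values were knockout 3 at 38.0 CPM and control 1 at 36.7 CPM. Sav1, the scaffold that joins MST to LATS, had a log2 difference of -0.03 (SE 0.06).

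Of 16 upstream regulators, 6 rose and 3 fell, while 7 did not pass, where 21.4% of all tested genes rose and 21.6% fell. The log2 difference was above 0 for 8 and below 0 for 8, with a median of 0.16 against 0.02 over all tested genes. Taok1, a kinase that can activate MST, rose to 133.9 ± 14.2 CPM in knockout libraries, against 81.1 ± 9.58 CPM in control libraries (SD, n = 6 each; edgeR adjusted p = 0.000139). Ajuba, a LIM protein that inhibits LATS, rose to 98.2 ± 41.5 CPM in knockout libraries, against 43.2 ± 3.90 CPM in control libraries (edgeR adjusted p = 0.00115), averaging 71.6 CPM over knockout 1 to 4 but 151.4 CPM over knockout 5 and 6. Dchs1, a giant cadherin and the ligand of the receptor FAT4, fell to 4.68 ± 3.10 CPM in knockout libraries, against 25.8 ± 5.90 CPM in control libraries (log2 difference -2.44, SE 0.34; edgeR adjusted p = 0.000165). The knockout values of Dchs1 ran from 2.18 to 10.3 CPM and the control values from 14.4 to 31.4 CPM, with no overlap. Without knockout 5 and 6 its log2 difference was -3.16. The other 2 that fell, named after their values were seen, were Nf2, the tumor suppressor Merlin, and Amotl1, an angiomotin, each with a log2 difference of -0.48 (edgeR adjusted p = 0.00297 for Nf2 and 0.00151 for Amotl1). For Nf2 control 6, at 70.7 CPM, lay in the knockout range of 56.6 to 79.9 CPM, while Amotl1 had no overlap.

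In the STRIPAK complex, a phosphatase assembly that removes the activating phosphate of MST, 4 of 10 genes rose, 0 fell and 6 did not pass the test. The shares over all tested genes were 21.4% higher and 21.6% lower. Mob4 rose to 78.8 ± 9.79 CPM in knockout libraries, against 48.2 ± 2.1 CPM in control libraries (SD, n = 6 each; edgeR adjusted p = 6.81e-05). Strn3, a striatin scaffold, rose to 176.4 ± 9.30 CPM in knockout libraries, against 136.5 ± 5.53 CPM in control libraries (edgeR adjusted p = 0.00076). Slmap, which links MST to the complex, rose in the same test (edgeR adjusted p = 0.0228) with a mean of 138.7 CPM in knockout 1 to 4. Its knockout 5 and 6 values were 93.3 and 78.2 CPM, beside a control range of 83.0 to 101.0 CPM, so the groups overlapped.

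Of the remaining TEAD and VGLL genes 2 of 4 tested rose, 0 fell and 2 did not pass the test, and Vgll1 and Vgll2 were too low to test. Over all tested genes 21.4% rose and 21.6% fell. Vgll3, a TEAD cofactor, rose to 172.6 ± 8.42 CPM in knockout libraries, against 106.8 ± 19.5 CPM in control libraries (SD, n = 6 each; edgeR adjusted p = 0.000316), with control 6 at 146.2 CPM. Tead4 rose at a low level, to 8.83 ± 4.47 CPM in knockout libraries, against 4.34 ± 0.644 CPM in control libraries (edgeR adjusted p = 0.0100). Knockout 5 and 6 had 15.3 and 13.9 CPM of Tead4, while knockout 1 to 4 averaged 5.96 CPM, beside control 6 at 5.34 CPM. Its log2 difference was 1.03 over all libraries and 0.45 without knockout 5 and 6. Tead2 did not pass, at 43.2 ± 14.2 CPM in knockout and 39.2 ± 3.56 CPM in control libraries.

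The relatives of Rassf6 gave 3 higher, 1 lower and 2 not past the test among 6 tested, and 3 of the 9 were too low to test. Beside these counts stand 21.4% higher and 21.6% lower over all tested genes. Rassf3 rose to 58.4 ± 16.3 CPM in knockout libraries, against 21.9 ± 10.4 CPM in control libraries (SD, n = 6 in both groups; log2 difference 1.41, SE 0.27; edgeR adjusted p = 0.00133). For Rassf3 control 6, at 43.1 CPM, was above knockout 5 and 6, whose mean was 37.8 CPM. Rassf1, a tumor suppressor that also binds MST, rose to 118.1 ± 50.2 CPM in knockout libraries, against 68.8 ± 4.74 CPM in control libraries (edgeR adjusted p = 0.0128). Knockout 1 to 4 averaged 85.9 CPM of Rassf1 and knockout 5 and 6 averaged 182.5 CPM. Rassf5 fell to 18.5 ± 4.86 CPM in knockout libraries, against 33.6 ± 7.25 CPM in control libraries (edgeR adjusted p = 0.00485), and control 6, at 18.9 CPM, lay in the knockout range. Rassf7, named after its values were seen, was the third gene that rose, at a mean of 3.94 CPM in knockout and 2.80 CPM in control libraries (edgeR adjusted p = 0.0376). It did not pass when knockout 1, 3 or 5 or control 1, 2, 3 or 4 was left out (edgeR adjusted p from 0.0647 to 0.0852). The Rassf6 log2 difference of 3.63 was larger than that of each tested relative, and the difference between the genes was not tested.

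**Figure D4:**
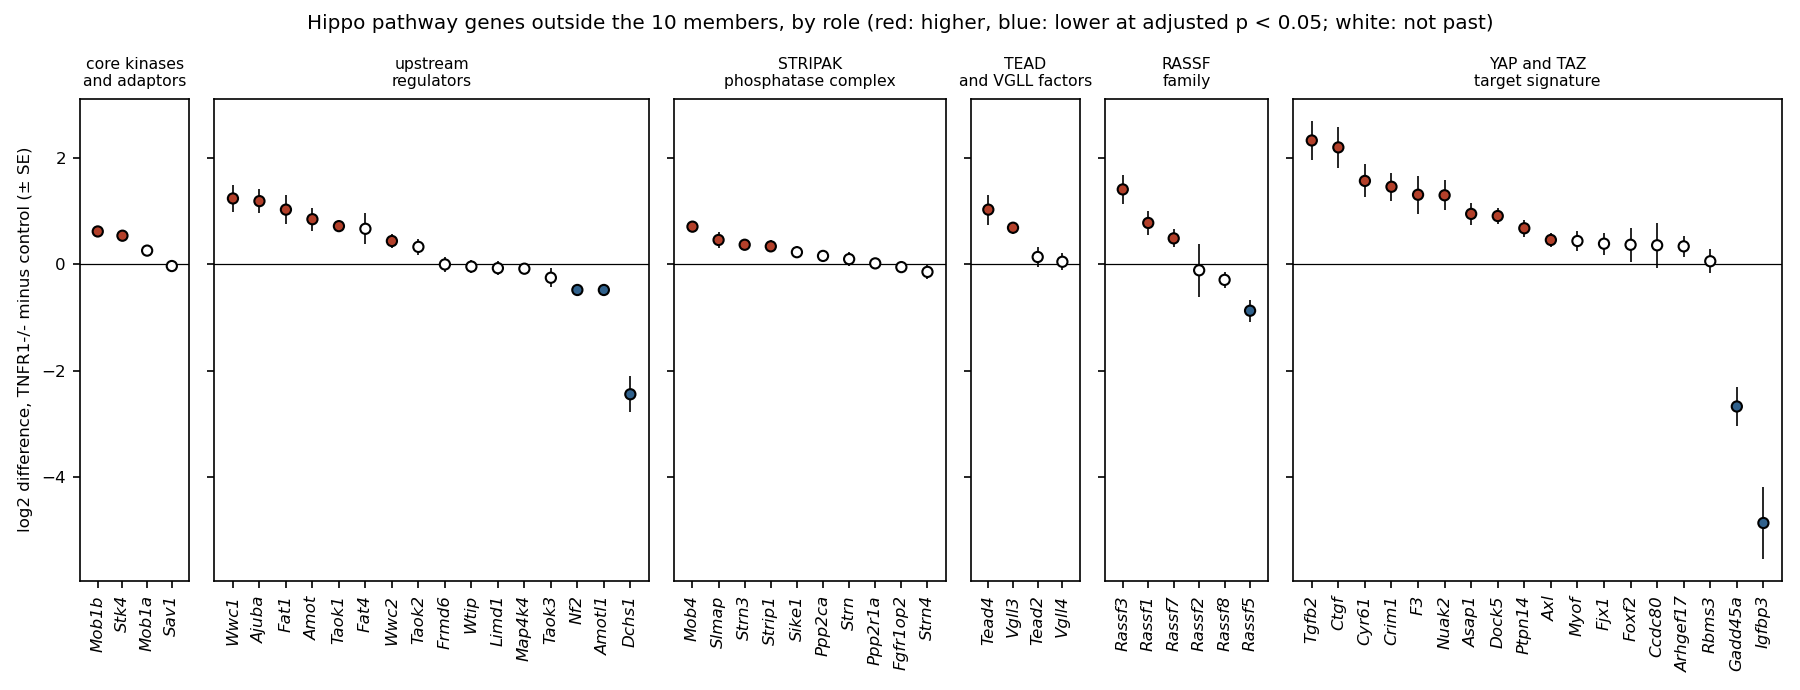
Log2 difference (knockout minus control, ± SE, n = 6 each) of 58 tested Hippo pathway genes outside the 10 members, in 6 panels by role; red and blue points passed an adjusted p of 0.05 as higher and lower, and white points did not. Most points lie above 0, while Dchs1, Gadd45a and Igfbp3 lie below -2.

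A published signature of YAP and TAZ target genes holds 19 genes besides Ankrd1, Amotl2 and Lats2, and 18 were tested. Of these, 10 rose, 2 fell and 6 did not pass the test, with a median log2 difference of 0.57. That is 55.6% higher and 11.1% lower, against 21.4% and 21.6% of all tested genes. Knockout libraries all lay above the controls for 4 genes and all below for 1, against 10.6% and 12.5% of tested genes. The groups overlapped for the rest, including most of the genes that rose. Ctgf, which encodes the matricellular protein CCN2, was at 2580, 2574, 2933, 2630, 4878 and 4631 CPM in knockout 1 to 6, against 457, 603, 452, 451, 606 and 1829 CPM in control 1 to 6. All knockout libraries were higher than all controls, and knockout 5 and 6 were the highest, as they were for Ankrd1 (log2 difference 2.20, SE 0.38; edgeR adjusted p = 0.00063). Cyr61, which encodes the related CCN1 and was named after its values were seen, rose to 1276 ± 446.8 CPM in knockout libraries, against 428.8 ± 240.9 CPM in control libraries (SD, n = 6 each; edgeR adjusted p = 0.00163). Control 6, at 920.4 CPM, was just below the lowest knockout library at 969 CPM.

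Tgfb2, the gene of transforming growth factor beta 2, rose to 29.7 ± 13.6 CPM in knockout libraries, against 5.87 ± 2.52 CPM in control libraries (SD, n = 6 in both groups; log2 difference 2.33, SE 0.37; edgeR adjusted p = 0.000344). It was highest in knockout 1 to 4, with 38.4 CPM on average, and stood at 12.3 CPM in knockout 5 and 6, close to control 6 at 10.9 CPM. Dock5, an activator of the GTPase Rac, rose to 90.5 ± 12.4 CPM in knockout libraries, against 48.2 ± 11.9 CPM in control libraries (edgeR adjusted p = 0.000454), but control 6 at 72.1 CPM was above the lowest knockout library at 67.9 CPM. The 2 signature genes that fell were Igfbp3 and Gadd45a. Igfbp3, a carrier of insulin-like growth factors, fell to a median of 12.3 CPM in knockout libraries (10.0 to 49.6), against 809.2 CPM in control libraries (66.1 to 854.5; log2 difference -4.86, SE 0.67; edgeR adjusted p = 0.000147). Gadd45a, a stress and DNA damage response gene, fell to a median of 27.9 CPM in knockout libraries (15.5 to 37.0), against 188.8 CPM in control libraries (35.4 to 208.7; log2 difference -2.67, SE 0.36; edgeR adjusted p = 0.000138). Without knockout 5 and 6 the log2 difference of Igfbp3 was -5.93. Control 6 was the lowest control for both genes, at 66.1 CPM of Igfbp3 and 35.4 CPM of Gadd45a, and for Gadd45a it lay in the knockout range.

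The profiles most like that of Rassf6 over the 12 libraries were found by the root mean square difference of log2 CPM, each gene centred on its own mean, so that 0 would be an identical profile. They included Cd24a (0.446), a cell surface glycoprotein, Gpr149 (0.520), an orphan receptor, Npnt (0.576), the matrix protein nephronectin, and Atp1b1 (0.584), a subunit of the sodium pump. Cd24a, for instance, was at 60.8 ± 10.8 CPM in knockout and 6.44 ± 6.06 CPM in control libraries (SD, n = 6 each), with control 6 at 18.7 CPM. The 5 nearest to Ankrd1 were Csrp2 (0.146), Ccrn4l (0.147), Plaur (0.151), Csrnp1 (0.182) and Bok (0.186). Of these, Csrp2 encodes a LIM protein of smooth muscle, Ccrn4l nocturnin, Plaur the urokinase receptor, Csrnp1 a nuclear protein and Bok a BCL2 family protein. All of these neighbours shared the libraries and the 4 sets with the gene they resemble. Symbols that start with Gm and a digit, or end in Rik, were passed over in both searches. Among the 10 members themselves the closest pair was Yap1 and Lats2 (0.149), followed by Wwtr1 and Stk3 (0.157). The measure is not scaled for the size of changes, so 2 genes that vary little lie close whatever their pattern. Wwtr1 and Stk3, for instance, had log2 differences of -0.14 and 0.04.

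**Figure D5:**
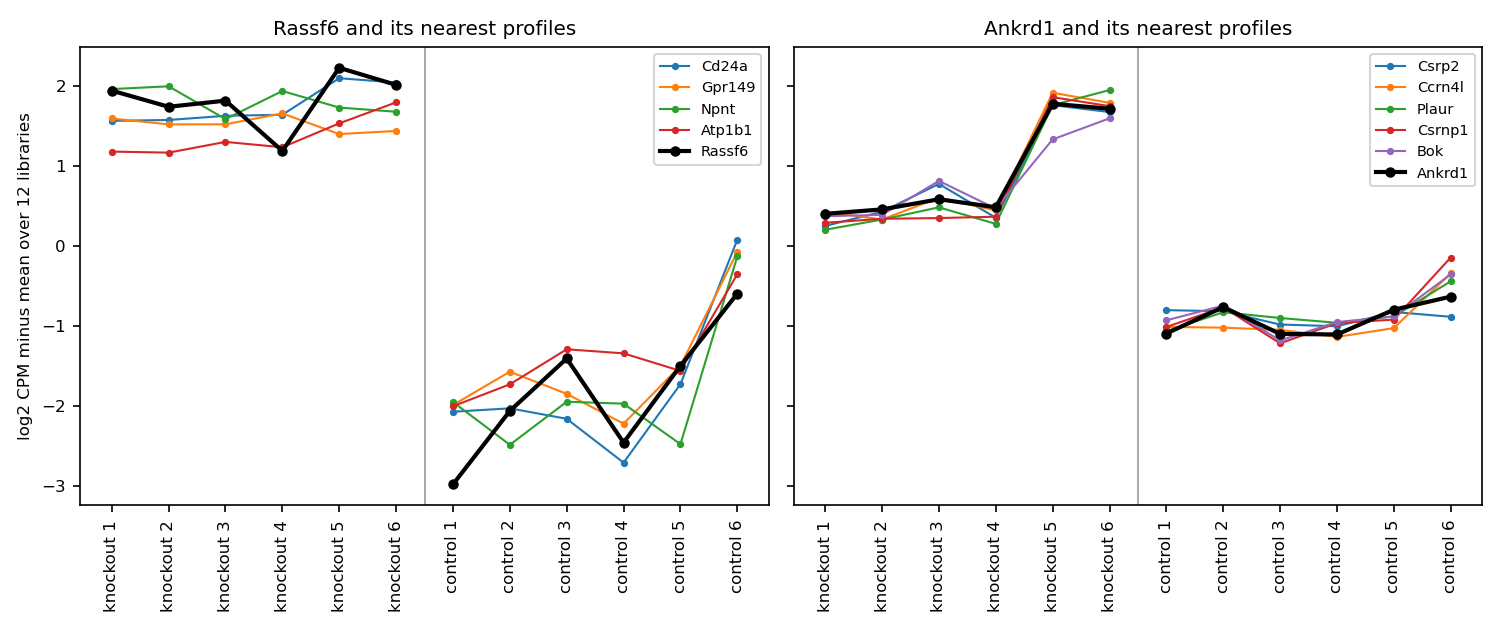
Log2 CPM (prior count 2) minus the gene's mean over 12 libraries for Rassf6 (left, black) and Ankrd1 (right, black) with nearest genes of each in colour, 4 and 5 in number; knockout libraries are left of the grey line and control libraries right of it. The Rassf6 neighbours are high in all knockout libraries and intermediate in control 6, and the Ankrd1 neighbours are highest in knockout 5 and 6.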

How the data were processed

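Polyadenylated RNA was captured on oligo-dT and sequenced as strand-marked libraries, per the labels' protocols, which also say that macrophages and epithelial cells stopped dividing early in culture. For the deposited expected counts, given per gene symbol, the submitters' processing notes list RSEM 1.2.15 with Bowtie2 2.1.0. A human build is listed too, yet the symbols are those of mouse, so which build was counted is unclear. Annotation and strand setting: not given in the sources used here. Reads shared by near-identical genes may have been split between them.

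Counts were rounded to whole numbers (2.67% to 3.48% of values per library had decimals). The low-count filter was filterByExpr (count 10, total 15) and the scaling TMM. The quasi-likelihood test of edgeR 4.0.16 (R 4.3.3) compared genotypes over all 12146 tested genes, with Benjamini-Hochberg adjustment and a threshold of 0.05. Differences are knockout minus control on a log2 scale. Alternatives used DESeq2 1.42.0, limma 3.58.1, other scalings and filters, a replicate block, and fewer or summed libraries.

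The members and lists were chosen with earlier results of these data known. Named genes are the 10 members, Tnfrsf1a, up to 3 called genes with the smallest adjusted p per role list (5 for the target signature), and the 5 nearest profiles of Rassf6 and Ankrd1, of which 1 near Rassf6 is not reported here. In a simulation of the genotype comparison (12198 genes, all at the common dispersion), the fit recovered 91.9% of 99 genes changed 2-fold and 100% of 97 changed 4-fold. It also called 12 genes that had not been changed. The simulated libraries were drawn independently, whereas the real ones fall into 4 sets, so these rates may not hold for the data. Depth limits low genes such as Rassf6, which had as few as 4 counts in a control library. Protein sequences of the members were not analysed here.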

Additional observations from a re-analysis of the deposited data

Results flagged for a closer look

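Each of the 10 members was checked for a library far from the other 5 of its group, 20 groups in all, of which chance flags about 1 in 20. In 5 of them the highest library stood apart, and in all 5 it was control 6. For Amotl2 control 6 was at 609 CPM and the next control at 285 CPM. For Tead1 control 6 was at 267 CPM and the next control at 193 CPM. For Yap1 the values were 241 and 192 CPM, for Lats2 187 and 142 CPM, and for Tead3 61.4 and 38.4 CPM. The gap took 0.817 to 0.951 of the range of the 6 controls in these genes. Across all tested genes control 6 also correlated better with knockout 1 to 4 than with control 1 to 5, as given above. Its Tnfrsf1a level, 54.9 CPM, was the lowest of the 6 controls.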

How the results depend on the processing

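Summing the libraries into 4 sets had the largest effect. The number of called genes, 5219 over 12 libraries, was 0 in edgeR (0 higher, 0 lower and 0 of the other Hippo pathway genes), with 1047 genes at an unadjusted p under 0.05, 198 called by DESeq2 and 0 by limma-voom, the last 2 tools having been added for the summed sets after seeing the data. The 23 calls named in the text (Tnfrsf1a and genes of the role lists) kept their direction but missed the threshold in the edgeR fit of the summed sets, at adjusted p from 0.613 to 0.803, while DESeq2 called Igfbp3. The log2 difference was -0.14 for Tead3 and 0.27 for Lats2 in that fit.

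Without knockout 5 and 6 the log2 difference of Ankrd1 was 1.39, that of Stk3 was 0, and 10 other pathway genes were lower among 6488 calls. Without control 6 as well, the calls were 8827 (4319 higher and 4508 lower) and 50 pathway genes, 12 of them lower, with log2 differences of 1.45 for Ankrd1, 0.55 for Tead3 and -0.05 for Stk3. Each genotype is then a single set, and the effects of set and genotype cannot be told apart. With library totals alone in place of TMM, Wwtr1 was at -0.20 and Stk3 at -0.02. The cause of these shifts was not tested. The summed fit has 2 samples in each group by construction.

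Leaving out each library in turn gave 4432 to 6069 calls (36.5% to 49.9% of tested genes), 31 to 37 of them pathway genes. Log2 differences were 3.44 to 4.05 for Rassf6, 0.78 to 1.13 for Amotl2 and -0.02 to 0.07 for Stk3, the low end without control 6. Of the 23 named calls, Rassf7 was lost without knockout 1, 3 or 5 and without control 1, 2, 3 or 4 (adjusted p from 0.0647 to 0.0852), and the others were kept in all 12 fits. Rassf7 was also lost with library totals alone (0.0661), with no filter on low counts (0.0658) and without knockout 5 and 6 (0.0780).

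The sample labels use the same replicate numbers in both genotypes, but whether equal numbers mark paired libraries could not be decided. The check used deviations from the group means, and these also carry the differences between sets of the same genotype. Deviations from the group means of same-numbered libraries correlated at -0.36 to 0.18, with 1 of 6 pairs over 0.1, and 0 of 6 knockout libraries correlated best with its own number. An edgeR fit with the replicate block gave 3974 calls, 32.7% of all tested genes, with 30 pathway genes among them. Slmap (adjusted p = 0.0897) and Rassf7 (adjusted p = 0.0782) did not pass in that fit. The comparison of protein sequences was not run. The nearest genes of Rassf6 and of Ankrd1 were the same 5 each with a prior count of 0.5.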
